A study of Mus musculus with 48 samples.

Results

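Liver messenger RNA was compared between mice fed atglistatin and mice fed the same chow without it, all of them drinking vehicle. The 20 libraries, 10 in each group, were those whose treatment label was EtOH ATGLi or EtOH CON, out of 48 in the whole study. The other 28 came from mice given corticosterone, 14 with and 14 without atglistatin, and enter the shared estimate of spread, the fits with a clock index over all 48 libraries and 1 closing comparison. All mice were male C57BL6J. EtOH ATGLi mice ate Teklad 8640 chow with 571 mg/kg atglistatin milled in and drank water with 1% ethanol, the corticosterone vehicle, for 2 weeks. EtOH CON mice drank the same ethanol water and ate the chow without the drug. Ethanol is thus common to both groups, and no group without it is part of the study's labels. Atglistatin is a small-molecule inhibitor of mouse adipose triglyceride lipase (ATGL, encoded by Pnpla2). It was given in food, to the whole animal. Each library has its own insulin and glucose label, and is taken as 1 mouse. The labels used here name no age, cage, batch, food intake or hour of collection, so none of these entered any fit.

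ATGL starts the breakdown of stored triglyceride, and its activator ABHD5 and inhibitor G0S2 set how much fatty acid leaves the lipid droplet. In liver, fatty acids released in this way feed oxidation and are known to support PPARα, the receptor that switches on fat oxidation genes. The circadian clock of hepatocytes is a feedback loop: BMAL1 (Arntl) with CLOCK or NPAS2 activates E-box genes such as the Per, Cry and Nr1d genes, whose products then repress them. Its output factors DBP, TEF and HLF activate, and NFIL3 represses, D-box genes, and enzymes of drug metabolism are among their known targets. Dbp and Arntl peak at opposite times of day in mouse liver.

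The libraries were made with the 3′ tag method QuantSeq, which counts transcript ends, so CPM (counts per library, scaled by TMM-adjusted depth) compares a gene between livers and not genes with each other. Total counts were 9318390 to 21086840 per EtOH ATGLi library and 7449109 to 17246286 per EtOH CON library. The 9 measured hepatocyte markers summed to 87109 to 110251 CPM in EtOH ATGLi livers and 81593 to 128372 CPM in EtOH CON livers, so the liver label held. The 12 measured pancreatic acinar markers summed to 14.02 to 8224 CPM in EtOH ATGLi livers and 24.3 to 663 CPM in EtOH CON livers. Cpa1, a pancreatic digestive enzyme, was above 20 CPM in 5 of these libraries: EtOH ATGLi 6 with 998 CPM and 11 with 37.8 CPM, and EtOH CON 9 with 67.5 CPM, 10 with 32.6 CPM and 15 with 25.6 CPM. No acinar marker passed the test, and results are also given without those 5 libraries and the 1 corticosterone library that was also above 20 CPM. EtOH ATGLi 14 and EtOH CON 10 stood apart in several genes described here, and values without them are given where they matter. In whole tissue, fewer cells of a type and less RNA per cell cannot be told apart.

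Of 12688 genes tested, 186 were higher and 211 lower in EtOH ATGLi livers than in EtOH CON livers (edgeR quasi-likelihood test, Benjamini-Hochberg adjusted p at most 0.05). Called here means past that threshold, and the 397 called genes are 3.13% of those tested, 1.47% higher and 1.66% lower. At least 2-fold differences were found in 38 of the higher and 54 of the lower genes, and the median absolute log2 fold change of called genes was 0.59. Of the 397, 219 (55.2%) were called whichever of the 20 libraries was left out. The count was 277 without EtOH ATGLi 11, the fewest of those 20 fits, and 519 without EtOH CON 12, the most, while it was 207 without the libraries with Cpa1 above 20 CPM. Called genes described below were followed through other fits, apart from Nr4a1, Btg2, Fgb, Fgg, Sult5a1 and Serpina1a. Mup7, Ugt2b38, Cyp3a25, Ugt2b35, Gsta2, Slco1a4, Abcg5 and Rbm3, also named below as called, were not followed either. None of the genes not followed is in the counts that follow. Besides Dbp and Arntl, the genes followed numbered 58. Without the Cpa1 libraries, 17 of these lost their call (Nr1d2, Por, Abcc4, Acot3, Acot4, Sc5d, Selenbp2, C8a, C8b, Fmo2, Chka, Alas2, Moxd1, Tff3, Mfsd2a, Fkbp5 and Ccng1, adjusted p from 0.0600 to 0.843) and Dnajb1 turned sign.

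The promoter windows below show what the called clock genes carry at their starts. Each runs from 250 bases before to 50 bases after a RefSeq transcript start on build GRCm38.p6 and is written 5′ to 3′ on the gene's strand. Motifs were searched on both strands: the E-box CACGTG bound by BMAL1 and CLOCK, the D-box TTATGNAA bound by DBP, TEF, HLF and NFIL3, and the RORE bound by the ROR and REV-ERB receptors. Capitals mark the matches, none of which overlap. Ciart (chr3:95882179-95882478, minus strand) holds the E-box at 3 places, Per3 (chr4:151044616-151044915, minus strand) the D-box at 2, Tef (chr15:81802423-81802722, plus strand) 1 E-box, and the later of 2 Arntl windows (chr7:113207261-113207560, plus strand) 1 RORE. Cyp2a5 (chr7:26835089-26835388, plus strand), a drug-metabolising gene known as a target of the D-box factors, holds 1 D-box, read on the opposite strand. It is 1 of 7 windowed genes outside the clock list: lower Mup17 and C9 also hold 1 D-box each and higher Nr1i3 an E-box, while higher Gstm1, Gstm3 and Cyp1a2 hold none of the motifs.
Ciart: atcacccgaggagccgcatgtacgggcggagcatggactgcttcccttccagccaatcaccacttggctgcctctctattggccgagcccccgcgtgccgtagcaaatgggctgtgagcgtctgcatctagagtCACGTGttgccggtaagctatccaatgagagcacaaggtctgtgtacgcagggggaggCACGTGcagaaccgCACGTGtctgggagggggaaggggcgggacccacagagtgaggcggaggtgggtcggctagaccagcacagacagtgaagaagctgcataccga
Per3: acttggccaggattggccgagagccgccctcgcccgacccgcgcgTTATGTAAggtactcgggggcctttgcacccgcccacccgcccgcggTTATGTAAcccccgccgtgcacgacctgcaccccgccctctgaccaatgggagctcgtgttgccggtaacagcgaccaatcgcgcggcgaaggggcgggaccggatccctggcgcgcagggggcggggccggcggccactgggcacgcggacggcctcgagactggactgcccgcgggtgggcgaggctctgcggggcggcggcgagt
Tef: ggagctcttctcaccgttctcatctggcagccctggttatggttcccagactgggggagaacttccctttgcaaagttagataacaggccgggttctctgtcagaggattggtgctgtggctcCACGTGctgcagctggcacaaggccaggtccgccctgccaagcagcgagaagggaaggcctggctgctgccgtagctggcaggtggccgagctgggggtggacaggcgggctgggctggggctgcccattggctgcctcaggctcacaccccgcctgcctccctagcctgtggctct
Arntl: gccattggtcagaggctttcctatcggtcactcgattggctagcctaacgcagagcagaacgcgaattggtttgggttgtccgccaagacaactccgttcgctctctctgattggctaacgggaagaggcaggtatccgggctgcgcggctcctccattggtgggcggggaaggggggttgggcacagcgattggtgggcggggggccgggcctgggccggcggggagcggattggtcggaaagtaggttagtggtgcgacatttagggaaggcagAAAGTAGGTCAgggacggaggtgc
Cyp2a5: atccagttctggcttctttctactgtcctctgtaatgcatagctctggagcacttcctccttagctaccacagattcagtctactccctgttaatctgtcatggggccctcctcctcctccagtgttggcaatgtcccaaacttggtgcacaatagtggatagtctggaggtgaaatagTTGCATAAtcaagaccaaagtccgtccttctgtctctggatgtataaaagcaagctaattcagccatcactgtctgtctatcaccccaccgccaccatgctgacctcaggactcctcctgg

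Over the 11 called clock genes, an E-box lay in windows of 3 genes, Ciart, Bhlhe41 and Tef, the last in both its windows. A D-box lay in windows of 1 gene and a RORE in 1, and 6 genes, Dbp among them, had none of the motifs in the window. Over all 32851 mouse windows in the table, 7.15% held the E-box, 3.38% the D-box and 0.384% the RORE. A match is a description of these letters and not a bound site, and no match says only that the letters are not in this window.

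Clock and clock output genes differed between the diets in a pattern with Dbp and its kin higher and Arntl and its kin lower. Of 31 listed genes 30 were measured well enough to test. Of these, 8 were higher in EtOH ATGLi livers (Dbp, Tef, Per3, Ciart, Bhlhe41, Usp2, Nr1d2 and Por), 3 were lower (Arntl, Npas2 and Nfil3), and 19 did not pass, against 3.13% called over all genes. The median log2 fold change over the 30 was 0.36, against -0.00 over all genes. Without EtOH ATGLi 14, 6 were higher and 2 lower, and without the libraries with Cpa1 above 20 CPM, 6 were higher and 3 lower.

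Dbp (chr7:45705088-45710203), the D-box activator whose transcript swings widely over the day, had 10.5, 30.4 and 133 CPM as the lowest, median and highest value in EtOH ATGLi livers, against 1.26, 4.89 and 10.5 CPM in EtOH CON livers. The groups did not overlap, but only just: the lowest EtOH ATGLi library had 10.53 CPM and the highest EtOH CON library 10.50 CPM. Dbp was 7.75-fold higher in EtOH ATGLi livers (log2 fold change 2.95 ± 0.44, SE; adjusted p = 3.04e-05), and between 2.56 and 3.13 with any single library left out. By the numbers in the library titles, EtOH ATGLi 5 to 14 had 10.5, 18.7, 11.3, 19.9, 24.6, 36.3, 38.8, 62.3, 61.2 and 133 CPM. EtOH CON 1, 2, 3, 4, 9, 10, 11, 12, 15 and 16 had 2.54, 5.16, 1.26, 6.19, 1.45, 9.06, 3.68, 10.5, 4.61 and 9.55 CPM. EtOH ATGLi 10 to 14 held the 5 highest values of that group, and the labels do not say what the numbers stand for.

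Arntl (chr7:113207465-113314126), the BMAL1 gene, had 0.678, 4.29 and 9.28 CPM in EtOH ATGLi livers, against 2.08, 9.82 and 13.2 CPM in EtOH CON livers. The groups overlapped, and 9 of 10 EtOH ATGLi libraries lay below the EtOH CON mean. EtOH ATGLi 14 was again at the end of its group, with the lowest Arntl, while the lowest EtOH CON value was that of EtOH CON 10. Arntl was 2.05-fold lower (log2 fold change -1.03 ± 0.25; adjusted p = 0.00983), and between -1.20 and -0.90 with any single library left out. Fitted on the 20 vehicle libraries alone, the fold change was -1.03 with an adjusted p of 0.0814, which ends the call.

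The other D-box factors and their antagonist followed the same division. Tef, a paralogue of Dbp, had 51.5, 82.9 and 192 CPM in EtOH ATGLi livers, against 26.4, 40.9 and 57.9 CPM in EtOH CON livers. Only EtOH ATGLi libraries reached above 57.9 CPM, 8 of the 10, and the log2 fold change was 1.13 ± 0.20 (adjusted p = 0.000408). Nfil3, the D-box repressor, had 4.25, 12.4 and 15.3 CPM in EtOH ATGLi livers and 11.5, 21.4 and 35.3 CPM in EtOH CON livers. All 10 EtOH ATGLi libraries were below the EtOH CON mean and the ranges overlapped (log2 fold change -0.89 ± 0.17, adjusted p = 0.00121). Hlf, the remaining activator, did not pass, at 0.38 ± 0.12 (adjusted p = 0.0629).

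Among the repressors of the loop, Per3, a period gene, had 2.75, 7.45 and 25.8 CPM in EtOH ATGLi livers, against 1.09, 1.61 and 3.42 CPM in EtOH CON livers, with 9 EtOH ATGLi libraries above every EtOH CON library. Its log2 fold change was 2.17 ± 0.37 (adjusted p = 0.000244). Ciart, which encodes CHRONO, a repressor of BMAL1, and Bhlhe41, which encodes DEC2 and competes for E-boxes, were low transcripts. Ciart had 0.494, 2.50 and 16.4 CPM in EtOH ATGLi livers, against 0.149, 0.400 and 1.47 CPM in EtOH CON livers (log2 fold change 2.85 ± 0.56, adjusted p = 0.00126). Bhlhe41 had 0.805, 2.999 and 9.56 CPM in EtOH ATGLi livers, against 0.307, 0.686 and 1.19 CPM in EtOH CON livers (2.53 ± 0.44, adjusted p = 0.000293). Both overlapped between the groups, with 6 EtOH ATGLi libraries above the EtOH CON range for Ciart and 7 for Bhlhe41.

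Several core members did not pass the test. Per1 had a log2 fold change of 0.87 ± 0.27 (adjusted p = 0.0626), Per2 0.66 ± 0.21 (0.0736), Nr1d1, the REV-ERBα gene, 0.73 ± 0.25 (0.0960), Bhlhe40 0.57 ± 0.17 (0.0513) and Cry1 -0.49 ± 0.15 (0.0647). Clock itself, whose transcript is known to vary little over the day, gave -0.11 ± 0.08 (adjusted p = 0.528).

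Usp2, a deubiquitinase gene driven by the clock, had 12.1, 31.7 and 187 CPM in EtOH ATGLi livers, against 3.32, 5.48 and 38.5 CPM in EtOH CON livers. The ranges overlapped, with 3 EtOH ATGLi libraries above the EtOH CON range, and the log2 fold change was 2.23 ± 0.41 (adjusted p = 0.000592). Npas2, the CLOCK paralogue, had 0, 0.631 and 1.88 CPM in EtOH ATGLi livers and 0.668, 1.80 and 3.26 CPM in EtOH CON livers (-1.52 ± 0.43, adjusted p = 0.0383). Nr1d2, the REV-ERBβ gene, gave 0.60 ± 0.17 (adjusted p = 0.0365), and Por, the reductase that serves the P450 enzymes, 0.81 ± 0.23 (0.0350). These 3 calls were close to the threshold. That of Npas2 was lost without EtOH ATGLi 7, 9, 10, 11, 12, 13 or 14 or EtOH CON 1, 2, 3 or 15 (adjusted p up to 0.0786). That of Nr1d2 was lost without EtOH ATGLi 8, 10, 12 or 14 or EtOH CON 1, 3, 9 or 11 (up to 0.0851), and that of Por without EtOH ATGLi 11 or 14 or EtOH CON 1, 2, 3, 4 or 11 (up to 0.141).

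**Figure D1:**
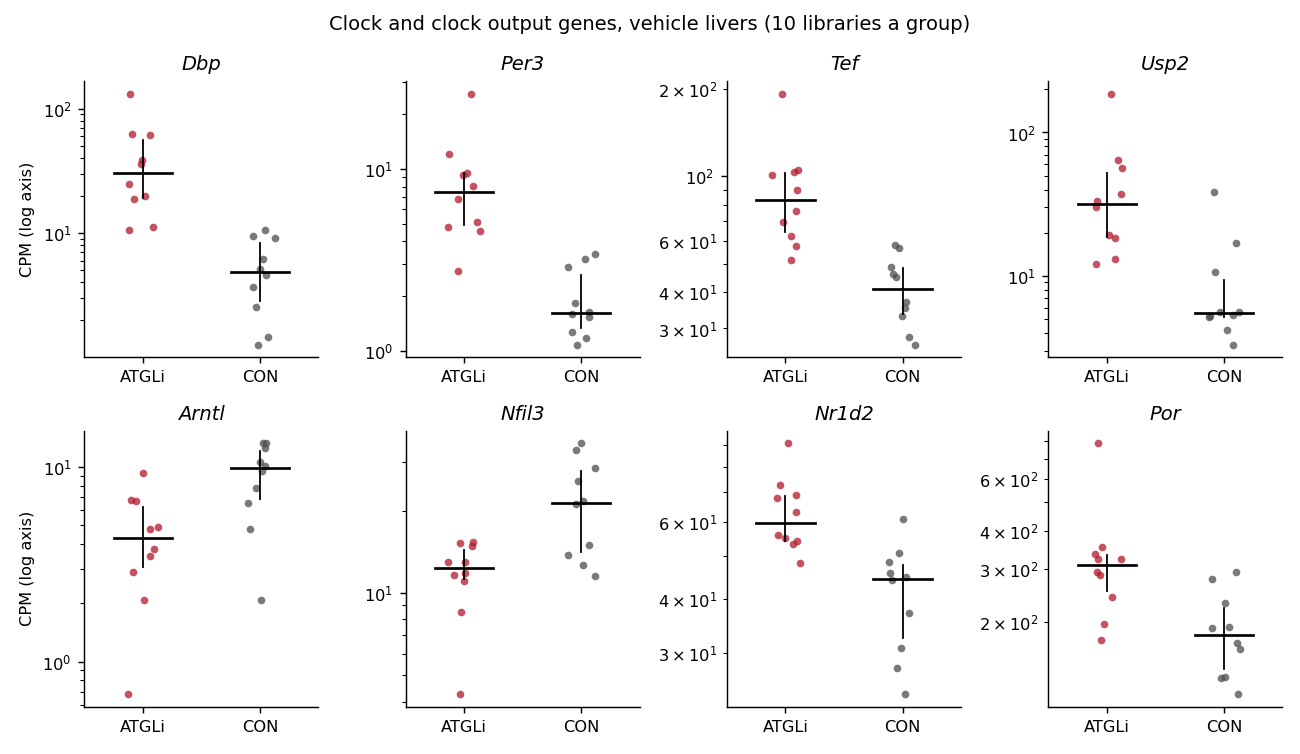
CPM on log axes of 8 called clock and clock output genes in each vehicle liver, EtOH ATGLi (red) beside EtOH CON (grey), 10 libraries a group. Horizontal bars are medians and vertical bars interquartile ranges. For Dbp the lowest EtOH ATGLi library (10.53 CPM) sits just above the highest EtOH CON library (10.50 CPM), and the other 7 genes overlap.

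To put a size on the clock difference in each liver, log2 CPM of Dbp minus log2 CPM of Arntl was taken as an index. It ran from 0.27 to 7.35 with a median of 2.62 in EtOH ATGLi livers, and from -3.25 to 2.05 with a median of -0.93 in EtOH CON livers (means 2.98 ± 2.11 and -0.87 ± 1.74, SD, n = 10 each). The 7.35 belongs to EtOH ATGLi 14 and the 2.05 to EtOH CON 10. The index is built from genes chosen because they differ, so these values are a description. In the corticosterone groups its median was 0.76 with atglistatin and -2.11 without.

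The called genes were then fitted again with the index as a covariate over all 48 libraries. With it 15 genes (0.118% of those tested) were called, 7 higher and 8 lower in EtOH ATGLi livers, 14 of them among the 397. Fitted on the 20 vehicle libraries alone with the index, 13 genes were called, 11 higher and 2 lower and all among the 397, of which 7 were among the 15 (Gstm1, Cbr3, Cyp2a5, Ugdh, Gm18635, C9 and Fhit). The edgeR count at an unadjusted p under 0.05 was 1158 with the index, against 2043 without. Of the 397, 391 kept their sign with the index, at a median 0.723 of their log2 fold change, and the standard error over these was a median 1.29 times as large. Because the index itself differs between the groups, the fit cannot separate what belongs to the index from what belongs to the diet where both move together. No clock gene was called with the index, and it contains Dbp and Arntl, so their own values in that fit are not a test.

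Within groups, over all 48 libraries, 286 genes (2.25%) changed with the index (edgeR test of its slope). Of these, 41 were also among the 397 with a slope of the same sign as the diet difference, which is 10.3% of the 397 and 14.3% of the 286, and 0 had the opposite sign. Among the 30 clock genes 16 had a called slope, Dbp and Arntl by construction. The other clock genes belong to the same loop or its output, so that count is no yardstick for other lists. A slope was called for 2 of 34 genes in the CAR and PXR list, 0 of 7 in the AHR list, 0 of 22 in the NRF2 list and 1 of 35 in the PPARα list, against 2.25% of all genes. The part of the clock in the other differences was not tested beyond these fits.

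**Figure D2:**
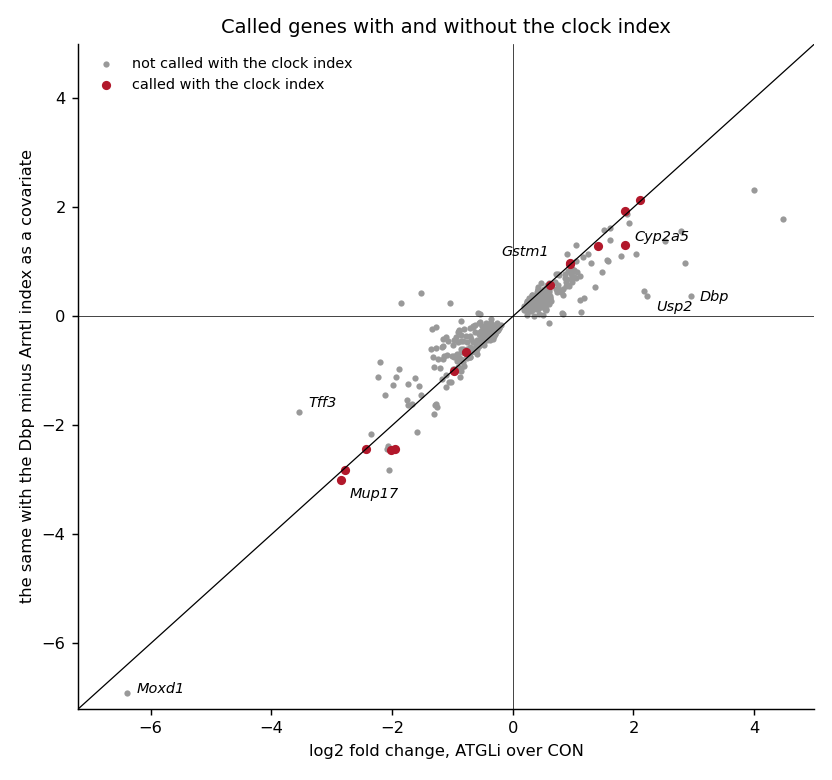
Log2 fold change of EtOH ATGLi over EtOH CON of the 397 called genes (horizontal) against the same contrast with the Dbp minus Arntl index as a covariate (vertical), with the line of equal values. Red points are the genes still called with the index. Gstm1 and Mup17 stay near the line, Cyp2a5 drops to 1.31, and Dbp and Usp2 drop to 0.38 and 0.37.

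Many genes for the handling of drugs and other foreign compounds were higher in EtOH ATGLi livers. They are controlled by the nuclear receptors CAR and PXR, the aryl hydrocarbon receptor AHR and the oxidative stress factor NRF2. Of 34 measured CAR and PXR targets 11 were higher and none lower in EtOH ATGLi livers, with a median log2 fold change of 0.57 and a positive sign in 32. Of 7 AHR targets 4 were higher (median 1.04), and of 22 NRF2 targets 9 were higher (median 0.38), none lower, against 1.47% of all genes called higher. The lists share Gstm1, Gstm3, Gsta2, Nqo1 and Cyp2a5. Without EtOH ATGLi 14 the counts were 7, 4 and 8, and without the libraries with Cpa1 above 20 CPM they were 7, 4 and 5.

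Cyp2a5 (chr7:26835305-26843548), a P450 enzyme that oxidises coumarin and bilirubin, had 618, 826 and 1308 CPM in EtOH ATGLi livers, against 92.7, 241 and 416 CPM in EtOH CON livers. Every EtOH ATGLi library was above every EtOH CON library, and the log2 fold change was 1.86 ± 0.24 (adjusted p = 1.63e-06). Gstm1 (chr3:108012255-108017973), a glutathione transferase, had 3084, 3561 and 4502 CPM in EtOH ATGLi livers and 1321, 1925 and 2259 CPM in EtOH CON livers. It too separated the groups without overlap, at 0.95 ± 0.11 (adjusted p = 1.27e-07), the smallest p of all genes. Over all genes, 21 (0.166%) were higher and 11 (0.0867%) lower without overlap.

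Gstm3, another transferase of the family, had 114, 156 and 300 CPM in EtOH ATGLi livers, against 36.5, 58.9 and 76.8 CPM in EtOH CON livers (1.62 ± 0.30, adjusted p = 0.000551), again without overlap. Nr1i3, the gene of CAR itself, had 76.7, 97.8 and 131 CPM in EtOH ATGLi livers and 26.6, 52.4 and 82.4 CPM in EtOH CON livers (1.01 ± 0.17, adjusted p = 0.000154), with 9 of 10 above the EtOH CON range. Cyp2b10, the classic CAR target, did not pass, at 0.80 ± 0.35 (adjusted p = 0.224), with 12.8 CPM as the EtOH ATGLi median and 6.37 CPM as the EtOH CON median. The remaining higher members were Cyp2a4, Cyp3a25, Ugt2b35, Gsta2, Slco1a4, Por and Abcc2, the bile canalicular exporter of conjugates (0.38 ± 0.08, adjusted p = 0.00176).

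Cyp1a2 (chr9:57676937-57683703), the main AHR target of hepatocytes, had 1126, 1853 and 2799 CPM in EtOH ATGLi livers, against 403, 678 and 1222 CPM in EtOH CON livers. All but 1 of the EtOH ATGLi libraries were above the EtOH CON range (1.41 ± 0.22, adjusted p = 6.52e-05). Cyp1a1, the AHR target that is near silent without a ligand, had 0.493, 1.06 and 2.04 CPM in EtOH ATGLi livers and 0, 0.175 and 0.759 CPM in EtOH CON livers (2.11 ± 0.36, adjusted p = 0.000244). Cyp1a1 rests on few counts, and 9 of its EtOH ATGLi values were above the EtOH CON range.

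Of the NRF2 targets, Nqo1, a quinone reductase, had 5.79, 7.50 and 9.57 CPM in EtOH ATGLi livers, against 0.965, 3.99 and 5.11 CPM in EtOH CON livers (1.04 ± 0.19, adjusted p = 0.000551). Cbr3, a carbonyl reductase, had 2.13, 3.26 and 6.31 CPM in EtOH ATGLi livers and 0.307, 1.02 and 1.74 CPM in EtOH CON livers (1.85 ± 0.29, adjusted p = 6.64e-05). Neither gene overlapped between the groups. Abcc4, an exporter in the basolateral membrane, was also higher, at 0.98 ± 0.20 (adjusted p = 0.00252). With the clock index as a covariate, Gstm1 (0.98, adjusted p = 0.000117), Cbr3 (1.94, 0.00748), Cyp2a5 (1.31, 0.0252), Cyp1a2 (1.30, 0.0259) and Cyp1a1 (2.13, 0.0282) were still called. In the vehicle libraries alone with the index, Cyp1a2 (1.07, adjusted p = 0.149) and Cyp1a1 (2.44, 0.135) were not called, while Gstm3 was (1.62, 0.00319). Ugdh, which makes the UDP-glucuronic acid that glucuronidation consumes, was called in both fits as well, with 128, 169 and 194 CPM in EtOH ATGLi livers and 94.4, 106 and 125 CPM in EtOH CON livers (0.62 ± 0.09, adjusted p = 2.34e-05). Ugdh was picked out after its values were seen.

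**Figure D3:**
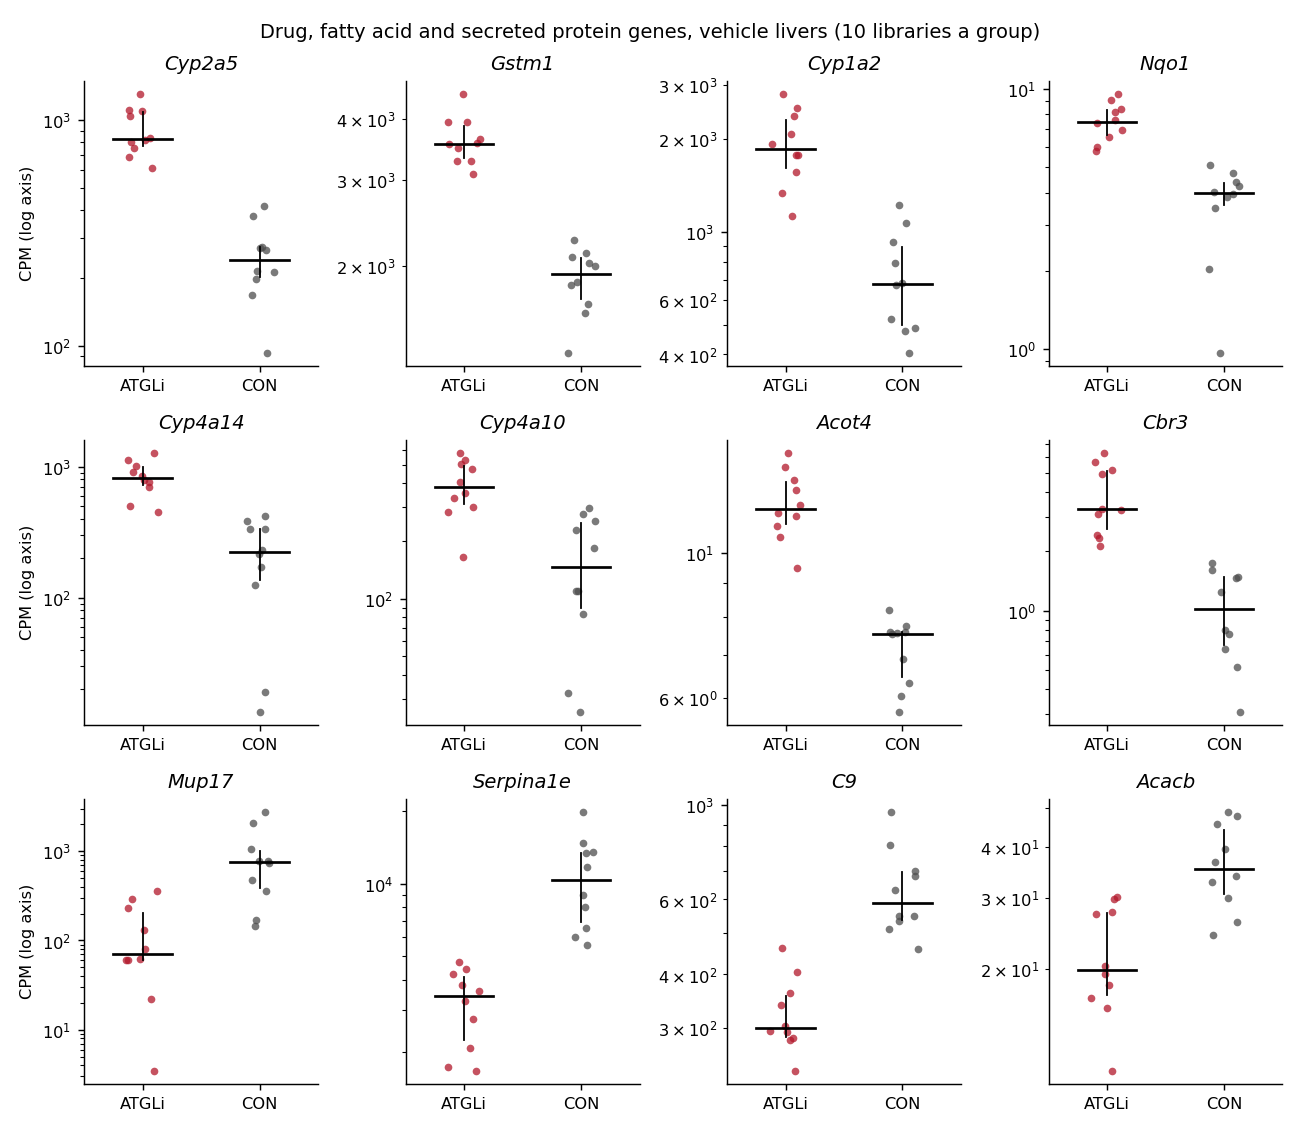
CPM on log axes of 12 called genes in each vehicle liver, EtOH ATGLi (red) beside EtOH CON (grey), 10 libraries a group, with medians and interquartile ranges. Cyp2a5, Gstm1, Nqo1, Cyp4a14, Acot4 and Cbr3 are higher and Serpina1e lower in EtOH ATGLi livers without overlap, and the other 5 genes overlap.

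Few genes of lipolysis itself passed the test, as was so over all genes (3.13%). Of 17 measured members of the lipolysis list 1 passed (5.88%), and of 12 lipid droplet genes none. These counts are too small to set the lists apart from that share. Pnpla2 (chr7:141455198-141460743), which encodes the drug's target, had 32.1, 45.4 and 79.0 CPM in EtOH ATGLi livers, against 24.01, 36.2 and 48.3 CPM in EtOH CON livers (0.34 ± 0.16, adjusted p = 0.261). Atglistatin binds the enzyme, and the transcript's level is no measure of its inhibition. Abhd5 gave -0.18 ± 0.11 (adjusted p = 0.411) and G0s2 -0.06 ± 0.33 (0.957), and G0s2 varied widely, from 24.6 to 153 CPM in EtOH ATGLi livers and from 4.46 to 134 CPM in EtOH CON livers. The called member was Pnpla7, a lysophospholipase gene, with 71.0, 89.4 and 112 CPM in EtOH ATGLi livers and 105, 123 and 154 CPM in EtOH CON livers (-0.49 ± 0.11, adjusted p = 0.00586).

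Of 35 PPARα targets and oxidation genes 4 were higher and none lower in EtOH ATGLi livers, against 1.47% of all genes called higher. Their median log2 fold change was 0.21, and 27 of the 35 were positive. Without the libraries with Cpa1 above 20 CPM 2 were higher. Of the 5 ketogenesis genes none passed. Cyp4a14 (chr4:115486200-115496142), a fatty acid ω-hydroxylase, had 447, 823 and 1276 CPM in EtOH ATGLi livers, against 13.4, 224 and 422 CPM in EtOH CON livers (1.89 ± 0.39, adjusted p = 0.00194). The groups did not overlap, though 2 EtOH CON libraries sat far below the rest of theirs. Cyp4a10, its paralogue, had 165, 382 and 577 CPM in EtOH ATGLi livers and 25.6, 147 and 296 CPM in EtOH CON livers (1.29 ± 0.31, adjusted p = 0.0105).

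The other called members were acyl-CoA thioesterases. Acot4 had 9.51, 11.7 and 14.2 CPM in EtOH ATGLi livers and 5.72, 7.54 and 8.20 CPM in EtOH CON livers, without overlap (0.74 ± 0.20, adjusted p = 0.0263), and its adjusted p was 0.0511 without EtOH ATGLi 11. Acnat2, which conjugates fatty acids to taurine, is not a listed member and gave 1.239 ± 0.22 (adjusted p = 0.000408). Acot3 gave 2.05 ± 0.52 (adjusted p = 0.0148), and 1.72 with an adjusted p of 0.0533 without EtOH ATGLi 14. Cpt1a, which admits fatty acids to mitochondria, gave 0.20 ± 0.13 (adjusted p = 0.486), and Pdk4, which spares glucose carbon, -0.87 ± 0.37 (0.208). Ppara itself gave 0.27 ± 0.14 (adjusted p = 0.351). Cyp4a10, Cyp4a14 and Acot3 also belong to the female-biased list described below.

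Of the lipogenic enzymes, Acly and Acacb were lower in EtOH ATGLi livers. Acly, which supplies cytosolic acetyl-CoA, had 93.6, 114 and 155 CPM in EtOH ATGLi livers, against 108, 188 and 345 CPM in EtOH CON livers (-0.76 ± 0.17, adjusted p = 0.00671). Acacb, the acetyl-CoA carboxylase at mitochondria whose product blocks fatty acid entry, had 11.2, 19.9 and 30.1 CPM in EtOH ATGLi livers and 24.3, 35.4 and 48.95 CPM in EtOH CON livers (-0.75 ± 0.17, adjusted p = 0.00666). Both overlapped between the groups, with all 10 EtOH ATGLi libraries below the EtOH CON mean. They were the 2 lower genes of 21 in the lipogenesis list, against 1.66% of all genes called lower, and the list's median was -0.13. Fasn (-0.23 ± 0.21, adjusted p = 0.628), Scd1 (-0.27 ± 0.28, 0.688), Acaca (-0.00 ± 0.18, 0.994) and the lipogenic regulator Srebf1 (-0.10 ± 0.24, 0.878) did not pass.

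Among 15 triglyceride synthesis genes only Agpat2, which makes phosphatidic acid, passed, with 120, 201 and 253 CPM in EtOH ATGLi livers and 248, 296 and 351 CPM in EtOH CON livers (-0.52 ± 0.10, adjusted p = 0.000993). Of 25 cholesterol synthesis genes 22 had a negative sign and 1, Sc5d, passed (-0.48 ± 0.12, adjusted p = 0.0139), while Hmgcs1 gave -0.62 ± 0.20 (0.0656). Both lists compare with 3.13% of all genes called. Fabp5, a fatty acid binding protein of low level in liver, had 1.64, 5.80 and 9.31 CPM in EtOH ATGLi livers and 8.39, 15.4 and 65.5 CPM in EtOH CON livers (-2.12 ± 0.36, adjusted p = 0.000244), with 9 of 10 below the EtOH CON range. Chka, which starts phosphatidylcholine synthesis, gave -1.32 ± 0.30 (adjusted p = 0.00625). Mfsd2a, a lysophospholipid carrier that fasting is known to induce, gave 1.48 ± 0.39 (adjusted p = 0.0184), with adjusted p of 0.0707 without EtOH ATGLi 11 and 0.0572 without EtOH ATGLi 14, and a log2 fold change of 2.09 without EtOH CON 12.

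Some transcripts typical of male mouse liver were lower and some typical of female liver higher in EtOH ATGLi livers, all of them from male mice. Male bias in mouse liver is known to depend on pulsed growth hormone acting through STAT5. Of 33 male-biased genes 6 were lower and none higher in EtOH ATGLi livers (Mup17, Mup7, Selenbp2, Ugt2b38, C8a and C8b), against 1.66% of all genes called lower, and the median log2 fold change was -0.83. Of 13 female-biased genes 7 were higher, Cyp2a4, Cyp4a10, Cyp4a14, Acot3, Abcc4 and Fmo2 among them, and none lower. Over all genes 1.47% were called higher, and the median of the 13 was 1.36. Cyp2a4 is also counted in the CAR and PXR list, Abcc4 in the NRF2 list and Cyp4a10, Cyp4a14 and Acot3 in the PPARα list. The counts rest on few libraries: without EtOH ATGLi 14 they were 4 of the male-biased and 3 of the female-biased genes, without EtOH CON 10 they were 4 and 6, and without the libraries with Cpa1 above 20 CPM 1 and 3. Mup7 lost its call in 12 of the 20 fits without a single library (adjusted p up to 0.0945).

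Mup17 (chr4:61591929-61595871), a major urinary protein gene, had 3.45, 71.1 and 362 CPM in EtOH ATGLi livers, against 146, 753 and 2783 CPM in EtOH CON livers. The ranges overlapped, 7 EtOH ATGLi libraries lay below every EtOH CON library, and the log2 fold change was -2.85 ± 0.57 (adjusted p = 0.00141). Mup15 and Mup9, not in the male-biased list, were lower as well, at -2.78 ± 0.46 (adjusted p = 0.000154) and -1.96 ± 0.42 (0.00308). Mup genes are near-identical copies, so how their reads divide among them is uncertain. With the clock index these 3 genes were still called, at -2.997 (adjusted p = 0.0282), -2.81 (0.0193) and -2.44 (0.0193). With it in the vehicle libraries alone they were not, at -2.93 (adjusted p = 0.181), -2.94 (0.156) and -2.31 (0.156).

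Selenbp2, a male-biased selenium-binding protein gene, had 11.5, 52.0 and 126 CPM in EtOH ATGLi livers and 76.7, 207 and 561 CPM in EtOH CON livers (-2.35 ± 0.63, adjusted p = 0.0235), and its adjusted p was 0.0519 without EtOH ATGLi 11 and 0.0504 without EtOH CON 9. Cyp2a4 and Fmo2, female-biased, rested on EtOH ATGLi 14, which had 34.4 CPM of Cyp2a4 and 57.8 CPM of Fmo2. Their log2 fold changes were 4.48 ± 0.86 (adjusted p = 0.000897) and 1.36 ± 0.35 (0.0173), and without that library 2.11 (0.0628) and 0.94 (0.106).

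Several secreted plasma proteins were lower. Serpina1e (chr12:103946931-103958975), a copy of the antitrypsin genes, had 1672, 3420 and 4714 CPM in EtOH ATGLi livers, against 5559, 10373 and 19932 CPM in EtOH CON livers, without overlap (-1.75 ± 0.36, adjusted p = 0.00207). The complement genes C8a, C8b and C9 encode parts of the membrane attack complex. C8a had 186, 312 and 381 CPM in EtOH ATGLi livers and 355, 509 and 778 CPM in EtOH CON livers (-0.83 ± 0.21, adjusted p = 0.0134). C8b gave -0.92 ± 0.23 (adjusted p = 0.0142). C9 (chr15:6445327-6498751) had 237, 299 and 460 CPM in EtOH ATGLi livers and 459, 589 and 965 CPM in EtOH CON livers, where the highest EtOH ATGLi library just passed the lowest EtOH CON library (-0.97 ± 0.13, adjusted p = 6.70e-06), and -0.996 with the clock index (0.00348). C9 was picked out after its values were seen.

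**Figure D4:**
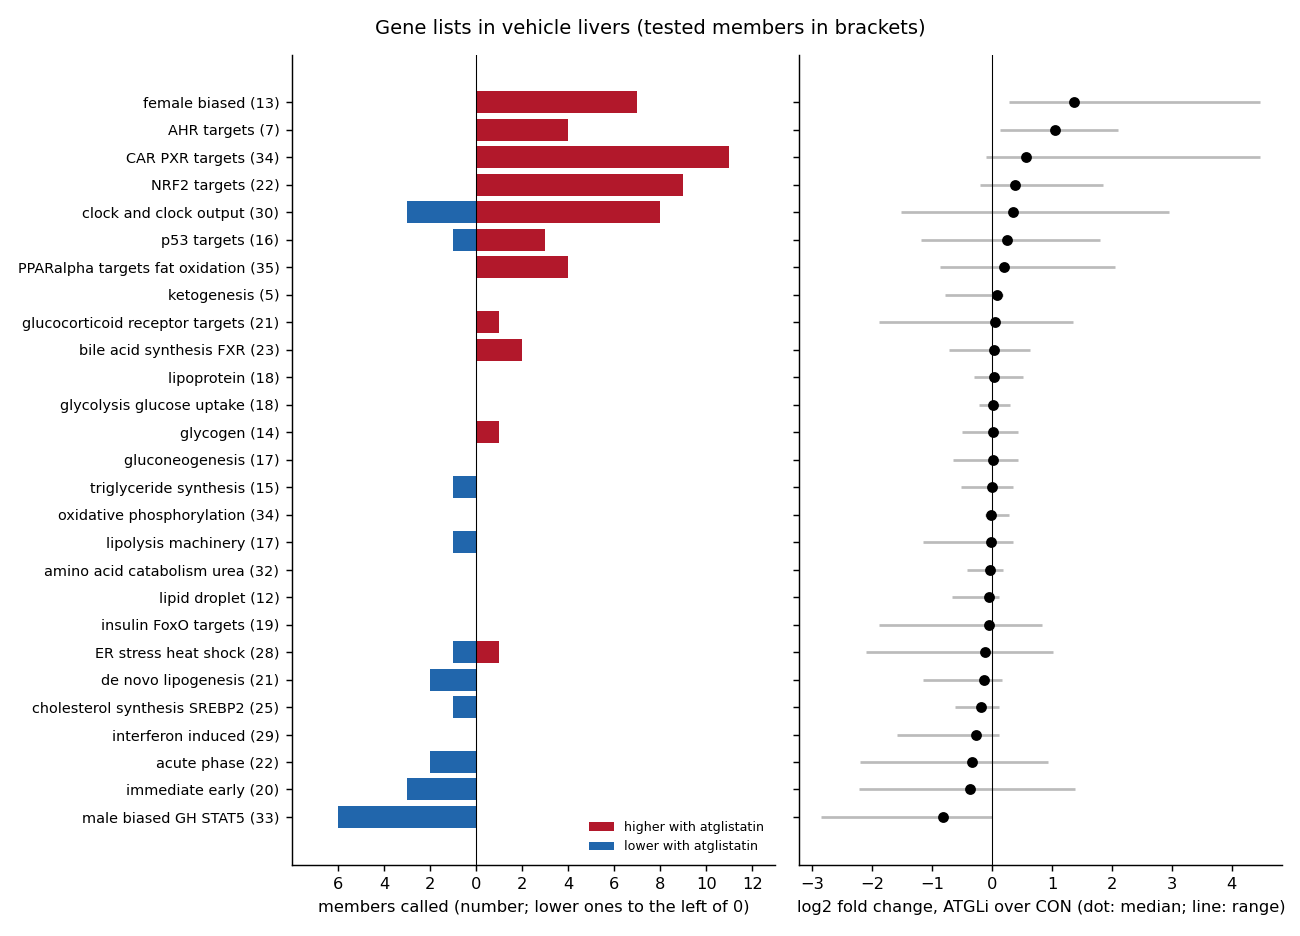
For 27 gene lists, the number of members called in EtOH ATGLi over EtOH CON livers (left, higher in red to the right of 0 and lower in blue to the left) and the median and range of log2 fold changes over the members tested (right). The CAR and PXR, NRF2, clock and female-biased lists have the most members higher, 11, 9, 8 and 7, and the male-biased list the most lower, 6. Lists share members.

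Among other called genes were Fhit, a dinucleotide hydrolase gene, and Rnf125, a ubiquitin ligase gene. Fhit (chr14:9550092-11162035), picked out after its values were seen, had 0.201, 0.529 and 0.992 CPM in EtOH ATGLi livers and 2.25, 2.64 and 4.43 CPM in EtOH CON livers, without overlap (-2.43 ± 0.30, adjusted p = 5.53e-07), and -2.43 with the clock index (0.00141). Rnf125 gave -1.27 ± 0.21 (adjusted p = 0.000154). Cyp26a1, which breaks down retinoic acid, gave -1.20 ± 0.30 (adjusted p = 0.0133), and -0.99 with an adjusted p of 0.05004 without EtOH CON 1. Ttc39c (-0.77 ± 0.11, adjusted p = 2.42e-05) and the predicted gene Gm18635 (0.95 ± 0.17, 0.000417) were, with Dnajb1 below, the remaining genes called with the index over all 48 libraries and without it, again picked out after their values were seen. In the vehicle libraries alone with the index Ttc39c was not called (-0.53, adjusted p = 0.167).

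Some of the largest fold changes rested on 1 or 2 livers. Dnajb1, a heat-shock co-chaperone, had 15.4, 22.0 and 27.3 CPM in EtOH ATGLi livers, against 11.8, 18.8 and 722 CPM in EtOH CON livers, where EtOH CON 10 alone held the 722. Its log2 fold change was -2.02 ± 0.51 (adjusted p = 0.0142), and 0.24 (0.608) without that library. Moxd1 had 87.1 CPM in EtOH CON 9, 44.0 CPM in EtOH CON 10 and at most 1.84 CPM in the other vehicle livers. Its -6.39 ± 1.60 (adjusted p = 0.0144) became -5.08 (0.0824) without EtOH CON 9, and -1.70 (0.843) without the libraries with Cpa1 above 20 CPM, which include both. Tff3, a mucosal peptide gene, had 261 CPM in EtOH CON 9, and its -3.54 ± 0.99 (adjusted p = 0.0328) became -1.61 (0.404) without it. Its call was also lost without EtOH ATGLi 8, 10, 11, 12 or 13 (adjusted p up to 0.0638). Irx3, the gene called with the clock index and not without it, and picked out for that (-2.05, adjusted p = 0.0252, against -1.11, 0.133), had 9.73 CPM in EtOH CON 10. It had at most 1.17 CPM in the other EtOH CON livers and at most 1.41 CPM in EtOH ATGLi livers. Without EtOH CON 10, and without the index, its log2 fold change was 0.10 (adjusted p = 0.905).

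Few glucocorticoid and glucose genes passed the test, as was so over all genes (3.13%). Of 21 glucocorticoid receptor targets 1 was higher in EtOH ATGLi livers, Fkbp5, a chaperone of the receptor, with 8.10, 14.6 and 43.9 CPM in EtOH ATGLi livers and 5.58, 8.06 and 17.2 CPM in EtOH CON livers (0.94 ± 0.25, adjusted p = 0.0207). Its adjusted p was 0.0740 without EtOH ATGLi 11 and 0.0943 without EtOH ATGLi 14, and Tsc22d3, another target, gave 0.06 ± 0.25 (0.942). The receptor gene Nr3c1 gave -0.07 ± 0.07 (adjusted p = 0.677). None of 17 gluconeogenesis, 18 glycolysis or 19 insulin and FoxO genes passed: Pck1 gave 0.43 ± 0.27 (adjusted p = 0.460), G6pc -0.66 ± 0.25 (0.149) and Igfbp1, which insulin represses, -1.89 ± 0.58 (0.0598), and for Igfbp1 -1.20 (0.256) without EtOH CON 10.

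Of 16 p53 targets 3 were higher (Ccng1, Eda2r and Zmat3) and Btg2 lower, against 1.47% of all genes called higher and 1.66% lower. Ccng1, cyclin G1, had 20.0, 24.6 and 37.8 CPM in EtOH ATGLi livers and 13.9, 16.9 and 25.6 CPM in EtOH CON livers (0.54 ± 0.14, adjusted p = 0.0171). Eda2r, a death-receptor relative, gave 1.80 ± 0.38 (adjusted p = 0.00295) at a median 0.560 CPM in EtOH ATGLi livers and 0.145 CPM in EtOH CON livers. Of 20 immediate early genes 3 were lower, Nr4a1, Gadd45g and Btg2, against 1.66% of all genes called lower. Gadd45g, a stress-induced growth arrest gene, gave -1.73 ± 0.45 (adjusted p = 0.0171), and -1.53 (0.0533) without EtOH CON 11. Nr4a1, an orphan receptor induced by cAMP, gave -2.23 ± 0.50 (adjusted p = 0.00586), and -1.40 (0.0771) without EtOH CON 4. Zmat3 and Btg2 each lost their call without any of several single libraries, 8 and 14 of the 20, Zmat3 at an adjusted p up to 0.0845 and Btg2 up to 0.146.

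No member passed in the lists of lipoprotein (18), amino acid and urea cycle (32), interferon-induced (29) and oxidative phosphorylation (34) genes. Of 23 bile acid genes 2 were higher, Abcc2 and Abcg5, of 22 acute phase genes 2 were lower, Fgb and Fgg, and of 28 ER stress and heat-shock genes Rbm3 was higher and Dnajb1 lower. Over all genes 1.47% were called higher and 1.66% lower. Fgb lost its call in 11 and Fgg in 12 of the 20 fits without a single library (adjusted p up to 0.0917 and 0.0968), and neither was called without EtOH CON 10 or without the libraries with Cpa1 above 20 CPM.

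Markers of cell types other than hepatocytes seldom passed, and over all genes 3.13% did. None of 19 Kupffer cell and macrophage, 16 sinusoidal endothelial, 20 stellate cell and matrix, 7 lymphocyte, 3 neutrophil, 5 adipocyte or 6 muscle markers did. Of 6 cholangiocyte markers Sox9 was lower, with 17.2, 21.1 and 28.5 CPM in EtOH ATGLi livers and 13.3, 37.5 and 78.5 CPM in EtOH CON livers (-0.92 ± 0.19, adjusted p = 0.00194), and the 6 summed to 32.7 to 44.6 CPM in EtOH ATGLi livers and 35.1 to 104 CPM in EtOH CON livers. Of 6 erythroid markers Alas2, the haem synthesis enzyme of red cells, was lower, with 27.8, 55.7 and 77.8 CPM in EtOH ATGLi livers and 86.6, 98.7 and 119 CPM in EtOH CON livers, without overlap (-0.86 ± 0.20, adjusted p = 0.00983). The erythroid sum was 864 to 2262 CPM in EtOH ATGLi livers and 974 to 2842 CPM in EtOH CON livers. Pericentral markers had 1 of 16 higher (Cyp1a2), periportal markers 1 of 12 lower (Sult5a1) and general hepatocyte markers 2 of 9 lower (Fgb and Serpina1a). Sult5a1 lost its call in 10 of the 20 fits without a single library (adjusted p up to 0.101) and Serpina1a in 1, without EtOH CON 9 (0.0559), and no periportal or general hepatocyte marker was called without the Cpa1 libraries. The part of these markers in the other results was not tested.

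Insulin, as the labels give it for each mouse and without a unit, was 1.17 ± 0.514 in EtOH ATGLi mice and 2.42 ± 0.705 in EtOH CON mice (SD, n = 10 each). It ranged from 0.464 to 2.05 in EtOH ATGLi mice and from 1.19 to 3.46 in EtOH CON mice, and 10 of 10 EtOH ATGLi mice were below the EtOH CON mean. The difference of -1.25 had a 2-sided permutation p of 0.0003 (100000 resamples, 0.0006 adjusted over the insulin and glucose tests). Fed glucose was 121 ± 16.5 in EtOH ATGLi mice and 132 ± 10.9 in EtOH CON mice, and the difference of -11.5 did not pass (permutation p = 0.0868, adjusted 0.0868). With log2 insulin as a covariate in the 20 vehicle libraries alone, 23 genes were called, against 446 in the same libraries without it. Dbp then gave 2.17 (adjusted p = 0.130) and Arntl -0.76 (0.630). As with the clock index, insulin and diet differ together in these mice and cannot be told apart by that fit.

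The corticosterone groups allow the same diet comparison in mice that share no library with these. Of those, 1 of 14 Cort ATGLi mice and 9 of 14 Cort CON mice are labelled diabetic, against none of the vehicle mice, so there diet and diabetic state differ together and cannot be told apart. There, Cort ATGLi over Cort CON, 1479 genes (11.7%) were called in the same fit. Of the 397 genes, 168 were called in the same direction there, 79 higher and 89 lower, which is 42.3% of the 397 and 11.4% of the 1479, and 4 were called in the opposite direction. The test of the difference between the diet effects called 181 genes (1.43%), of which 40 were among the 397.

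For some of the drug metabolism genes the fold changes under the 2 drinks stood as follows. Gstm1 had 0.95 under vehicle and 1.20 under corticosterone, Cyp2a5 1.86 and 1.51, Cyp1a2 1.41 and 1.62 and Nqo1 1.04 and 0.93, and the interaction passed for none of these (interaction adjusted p = 0.499, 0.726, 0.847 and 0.924). Dbp had 2.95 under vehicle and 1.89 under corticosterone (adjusted p = 0.000366 there), and Arntl -1.03 and -0.55 (0.0622), and the interaction did not pass for either (0.465 and 0.604). A p that misses the threshold does not show that the effects are alike. For Cyp2b10, which was not called under vehicle, the interaction did pass (1.60, vehicle minus corticosterone).

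In the fit over all 48 libraries the effects differed for other clock output genes and for the Cyp4a genes. Bhlhe41 had 2.53 under vehicle and -0.52 under corticosterone (interaction 3.05, adjusted p = 0.000540), Ciart 2.85 and -0.01 (interaction 2.85, 0.0173) and Usp2 2.23 and 0.29 (1.94, 0.0428). Cyp4a10 had 1.29 under vehicle and -0.65 under corticosterone (1.95, 0.00454), and Cyp4a14 1.89 and 0.06 (1.83, 0.0432). The p53 targets Ccng1 and Eda2r had smaller effects under vehicle, 0.54 and 1.80, than under corticosterone, 1.55 and 3.78 (interaction -1.01, 0.000540, and -1.98, 0.0394). Fkbp5 had 0.94 under vehicle and -0.69 under corticosterone (1.63, 0.00175), and the cholesterol synthesis genes Sc5d -0.48 and 0.47 (-0.95, 0.000141) and Hmgcs1 -0.62 and 1.05 (-1.68, 4.91e-05). The number of genes with differing effects fell to 64 without the libraries with Cpa1 above 20 CPM and to 76 without the libraries labelled diabetic, all of which are from corticosterone mice. Genes with a positive interaction, as for Bhlhe41 and Cyp4a10, fell from 92 to 20 in each of these fits. Those with a negative interaction fell from 89 to 44 and 56. Whether the genes named here kept their interaction in those fits is not given here.

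**Figure D5:**
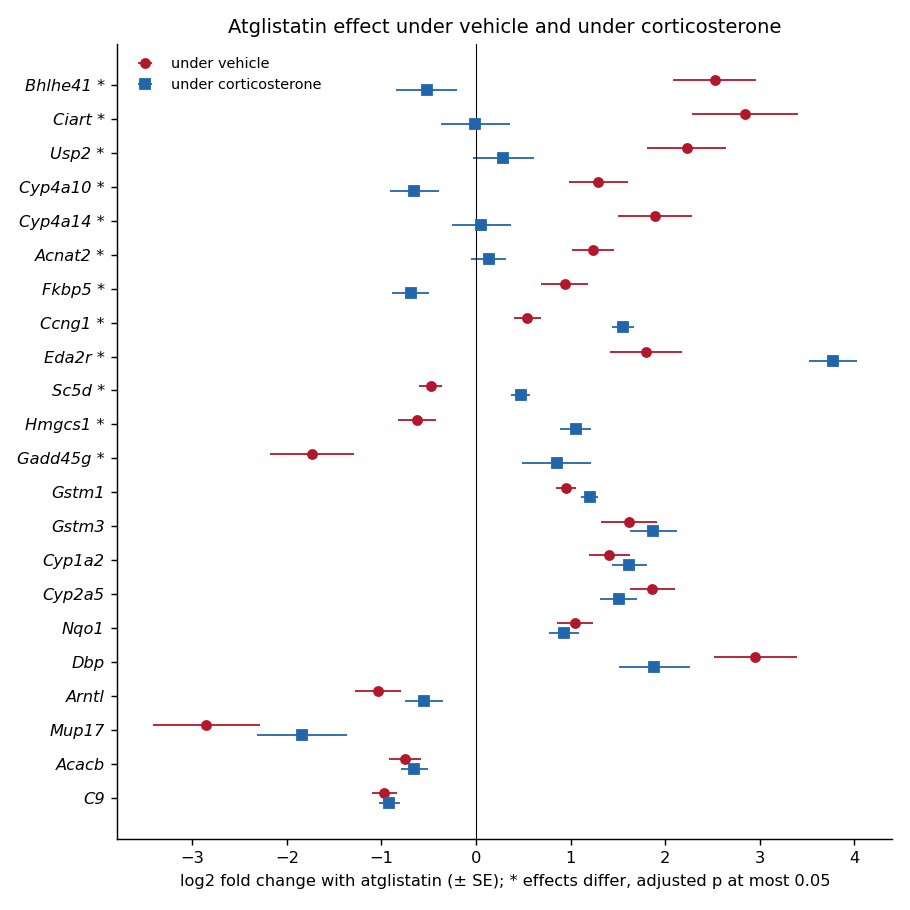
Log2 fold change with atglistatin (± SE) under vehicle (EtOH ATGLi over EtOH CON, red circles) and under corticosterone (Cort ATGLi over Cort CON, blue squares) for 22 genes named in the text. An asterisk marks genes whose effects differed at an adjusted interaction p of at most 0.05, such as Bhlhe41 (2.53 and -0.52). Gstm1 (0.95 and 1.20) lies at similar values under both.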

How the data were processed

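Flash-frozen liver was powdered for column-based RNA isolation and QuantSeq libraries, read forward over 50 bases, per the labels' protocols. R 3.6, DESeq2 1.24.0 and build GRCm38 are named, per the submitters' processing notes. For aligner, counter and strand, the sources used here give nothing. The deposited table holds counts for 14251 genes in 48 libraries. The authors also deposited normalized signal values: a single factor per library turns the counts into them, with deviations of at most 5.3e-15. That table served only for this check and for 12491 gene symbols. GENCODE M21 gave 1728 more symbols and the coordinates, and 32 IDs have none. The number of unmapped per-sample columns was 0.

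Counts were tested with edgeR 4.0.16 in R 4.3.3: filterByExpr (minimum count 10, minimum total 15), TMM factors, 1 mean per group over all 48 libraries, quasi-likelihood tests and Benjamini-Hochberg adjustment over 12688 genes. Lists are described by counts and medians. Fold changes are EtOH ATGLi over EtOH CON. Members, lists and tests were chosen with earlier results of these data known. The genes named are a part of those the rule allowed: the 15 highest and the 15 lowest called log2 fold changes with a symbol and at least 5 mean CPM, all clock genes, up to 4 members of each other list by p, a set of metabolic genes, and the 6 largest called interactions, while genes named after their values were seen are marked so in the text. There were 40 lists, 13 of them cell type markers.

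On simulated data made from these libraries, the test recovered 76.1% of genes changed 1.5-fold, 94.0% at 2-fold and 100% at 4-fold, with 5.76% false calls, over 12599 genes. Genes were drawn independently at the spread the same fit had estimated, and only genes above a low CPM floor were changed. Libraries that stand apart and genes that move together were not built in, so these rates do not carry over to the real livers. Replicates were separate libraries (smallest chi-square per degree of freedom within a group 6.21), and p-values measure the spread between these samples. Reads of near-identical copies (Mup, Cyp2a, Cyp3a, Cyp4a, Gstm, Acot, Ugt2b and Serpina1 genes) cannot be told apart where counting could split them, so their values are uncertain, and the same holds for overlapping genes without a stated strand. Insulin and glucose labels were compared with permutation tests. Alternatives included RLE factors, DESeq2 1.42.0, limma 3.58.1 with voom and sample weights, no filter, fewer libraries and covariates. The fits with the clock index or insulin in the vehicle libraries alone and with Cpa1 were chosen after seeing the data. Some listed genes are counted but not reported by name here.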

Additional observations from a re-analysis of the deposited data

Results flagged for a closer look

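In 22 of 174 group-wise checks, the highest or lowest library stood away from the rest by more than 0.466 of its group's range on the log2 scale. Chance gives about 1 in 20 for checks that are independent of each other. These checks reuse the same 20 livers over genes that move together, so the 22 cannot be set against that share. EtOH ATGLi 14 was the library in 11 of them: low in Nfil3 (gap 0.539 of the range), Clock (0.656), Acnat2 (0.504), Agpat2 (0.592), Mup9 (0.484), G6pc (0.466) and Gm18635 (0.498), and high in Por (0.529), Cyp2a4 (0.715), Fmo2 (0.467) and Tff3 (0.592). EtOH CON 10 was the library in 5, low in Pdk4 (0.647), G0s2 (0.665) and Srebf1 (0.552) and high in Dnajb1 (0.726) and Irx3 (0.710). EtOH CON 12 was high in Mfsd2a (0.479) and Tsc22d3 (0.549), EtOH CON 16 low in Per2 (0.490) and high in Nr1d1 (0.500), EtOH CON 11 low in Gm18635 (0.497) and EtOH ATGLi 6 high in Acaca (0.476).

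For 17 named genes the atglistatin effect under vehicle differed from that under corticosterone in the edgeR test of the difference itself, given here as vehicle minus corticosterone in log2. Over all genes 181 (1.43%) passed that test. Some of the named genes were chosen for their large interaction, so the 17 do not measure how often the effects differ. Clock and clock output genes were Bhlhe41 (3.05), Ciart (2.85), Usp2 (1.94), Bhlhe40 (0.88) and Hlf (0.60). Metabolic genes were Cyp4a10 (1.95), Cyp4a14 (1.83), Cyp2b10 (1.60), Acnat2 (1.11), Acaca (0.87), Sc5d (-0.95) and Hmgcs1 (-1.68). The others were Fkbp5 (1.63), Ccng1 (-1.01), Eda2r (-1.98), Gadd45g (-2.59) and Tff3 (-4.74), whose effect under vehicle went from -3.54 to -1.61 without EtOH CON 9.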

How the results depend on the processing

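The 397 calls numbered 408 with RLE factors, 389 without a filter, 384 with robust estimation, 446 in the vehicle libraries alone, 382 with Cpa1 as a covariate and 556 with DESeq2 (391 of the 397 shared). They numbered 899 with limma voom (397 higher and 502 lower), 207 without the libraries with Cpa1 above 20 CPM (165 of the 397 shared), 15 with the clock index (7 higher and 8 lower), 13 with it in the vehicle libraries alone (11 higher and 2 lower) and 23 with insulin. With single libraries left out they ranged from 277 to 519. The interaction count was 64 without the Cpa1 libraries, 76 without diabetic livers and 359 with limma voom, against 181. The numbers 9 to 12 occur in both groups. Same-numbered libraries did not deviate together (correlations -0.01, 0.04, -0.12 and -0.05, none best with its own number), so the numbers were not taken as pairs. With the replicate block over those 8 libraries 4 genes were called, and without the block 0 (edgeR; 1321 and 1484 at an unadjusted p under 0.05). Dbp gave 2.896 (adjusted p = 0.0658) with the block, 2.69 (0.107) in the same libraries without it and 2.17 (0.130) with insulin, and ranged from 2.56 to 3.13 with single libraries left out. Arntl gave -0.85 (0.536) with the block, -0.97 (0.453) without it, -0.76 (0.630) with insulin and -1.03 (0.0814) in the vehicle libraries alone, and ranged from -1.20 to -0.90 with single libraries left out. The sign turned for Npas2 with the clock index (0.42, and 0.017 in the vehicle libraries alone), Nr1d2 with it (-0.12), Usp2 (-0.018), Por (-0.019) and Fkbp5 (-0.067) with it in the vehicle libraries alone, and Dnajb1 without EtOH CON 10 (range -2.16 to 0.24 with single libraries left out), without the Cpa1 libraries (0.37), with limma voom (0.10) and with DESeq2 (0.20). The insulin and glucose differences kept their side of the threshold as medians and on a log2 scale. Of the 58 other called genes that were followed, 58 stayed called in the same direction with RLE factors, without a filter and with robust estimation. The count was 56 with DESeq2, 55 with Cpa1 as a covariate, 52 with limma voom, 40 without the Cpa1 libraries and 14 with the clock index. Some of the 58 were not tested in the vehicle libraries alone, where 50 stayed called and 5 did not. With insulin there, 11 stayed called and 44 did not. With the index there, 9 stayed called, 42 lost their call and 4 turned sign. Fewer libraries and the covariates widen errors by construction; beyond that, the cause was not tested. Transcripts with a median under about 1 CPM in at least 1 of the groups, such as Cyp1a1, Ciart and Fhit, rest on few counts there.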
